A study of Bos taurus with 6 samples.

Results

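The genes described here are the Wnt ligands, the proteins that process and carry them, their receptors, and the cytoplasmic, nuclear, antagonist and feedback genes of the pathway. They were taken from the deposited count table by symbol, from a list of 42, using the row with the most counts where several rows shared a symbol. Of the 42 symbols, 40 matched a row among 28200, each a single row, and LRP5 and GSK3B were not analysed here. The filter on low counts left 36 of the 40 among 13390 tested genes, and WNT4, WNT10A, WNT10B and SFRP1 fell below it.

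The libraries came from cultured primary mammary epithelial cells of Holstein cattle, isolated from mammary tissue by culture and enzyme digestion. The KLF6 knockout group had 3 libraries of cells in which the gene of the zinc-finger transcription factor KLF6 was disrupted with CRISPR/Cas9. The wild-type group had 3 libraries of cells of the wild-type genotype. The labels name no treatment, time point or animal age for either group, and they do not say whether the knockout cells were 1 clone or whether the libraries of a group came from separate cultures. The question is which transcripts change in level once KLF6 is disrupted. All p-values rest on the variation among the 6 libraries, and that variation may be technical.

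Total counts ranged from 17512892 to 18724879 per library. KLF6 itself averaged 224 ± 6.48 CPM (counts scaled to a common library size) in knockout libraries and 519 ± 34.0 CPM in wild-type libraries (SD, n = 3 each), so reads of the gene remained after the edit. Wild-type replicate 3 stood apart in its group. Its counts differed from those of wild-type replicates 1 and 2 with a variance 9.20 and 9.13 times that of counting error, whereas pairs of libraries without it gave ratios of 2.28 to 2.81. The labelled cell type was checked against marker genes. The 8 epithelial markers summed to 6441 to 6643 CPM in knockout libraries and 15900 to 17180 CPM in wild-type libraries, with 1 called higher and 5 lower, while EPCAM and CDH1 were not called. The 10 fibroblast markers summed to 246 to 259 CPM in knockout and 1055 to 1251 CPM in wild-type libraries, with 1 of 7 tested called higher and 4 lower. DCN made up most of that sum in both genotypes, averaging 229 ± 6.27 CPM after the edit, against 1134 ± 106 CPM in wild type. The fibroblast marker called higher was COL1A2, with 278 counts over the knockout libraries and 0 over wild type. The 5 endothelial markers summed to 30.8 to 32.6 CPM in knockout and 4.50 to 5.79 CPM in wild-type libraries. That sum was PECAM1 for the most part in knockout libraries (31.3 ± 0.886 CPM, against 0.219 ± 0.0941 CPM in wild type), while the other tested endothelial markers, VWF and TEK, were called lower (-3.85 ± 0.31 and -2.31 ± 0.45 on the log2 scale). The 5 myoepithelial or smooth muscle markers summed to 582 to 609 CPM in knockout and 51.8 to 54.1 CPM in wild-type libraries, most of it TAGLN in the knockout libraries (578 ± 14.0 CPM, against 6.31 ± 0.183 CPM in wild type), while the other tested markers of that list, ACTA2 and MYH11, were called lower (-1.31 ± 0.07 and -1.87 ± 0.44). The leukocyte gene PTPRC, the endothelial gene KDR and the adipocyte gene ADIPOQ had 0 counts in all 6 libraries. The 7 leukocyte markers summed to 5.05 to 5.82 CPM in knockout and 7.45 to 9.43 CPM in wild-type libraries. Of the 3 tested, CD74 was called lower (-4.92 ± 0.43), CSF1R was called higher (2.44 ± 0.37) and CD68 was not called. The 4 adipocyte markers summed to 1.89 to 4.24 CPM in knockout and 1.75 to 2.35 CPM in wild-type libraries. The part of these marker differences in the Wnt gene results was not tested.

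Wnt proteins are secreted, lipid-modified signals that bind Frizzled receptors together with co-receptors. In the beta-catenin branch of the pathway, ligand binding stops a cytoplasmic complex of AXIN, APC and kinases from marking beta-catenin for destruction, and beta-catenin then joins TCF/LEF factors at target genes, among them several of the pathway's own inhibitors. Other branches act without beta-catenin, through receptors such as ROR2, RYK and PTK7, and steer cell polarity and movement. In the mammary gland of mice, Wnt signals take part in bud formation, ductal branching and the upkeep of basal stem cells.

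Most tested members differed between the genotypes, and in both directions. By edgeR's quasi-likelihood test, with p-values adjusted by Benjamini-Hochberg over all genes, 18 members rose in knockout libraries and 14 fell at an adjusted p below 0.05, which is 88.9% of the 36. Over all tested genes the share called was 74.6%, with 37.1% called higher and 37.6% called lower. Among called members, 10 that rose and 5 that fell had a fitted change of at least 2-fold, 41.7% of those tested. Over all tested genes that share was 22.3% (10.8% higher and 11.5% lower). The test was against no change, so the 2-fold cut rests on the fitted value alone. With a library left out, APC, FZD6 and LEF1 could drop below it (log2 fold changes of -0.95, -0.98 and 0.93). WNT5B, FZD3, PORCN and DVL1 could pass it (1.03, 1.015, -1.04 and -1.02). The libraries of the genotypes did not overlap for 32 members, or 88.9%, and for 76.2% of all tested genes. The median size of the log2 fold change, without regard to sign, was 0.94 for members and 0.50 for all tested genes. These shares were not tested against each other, because the members were chosen with earlier results known.

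**Figure D1:**
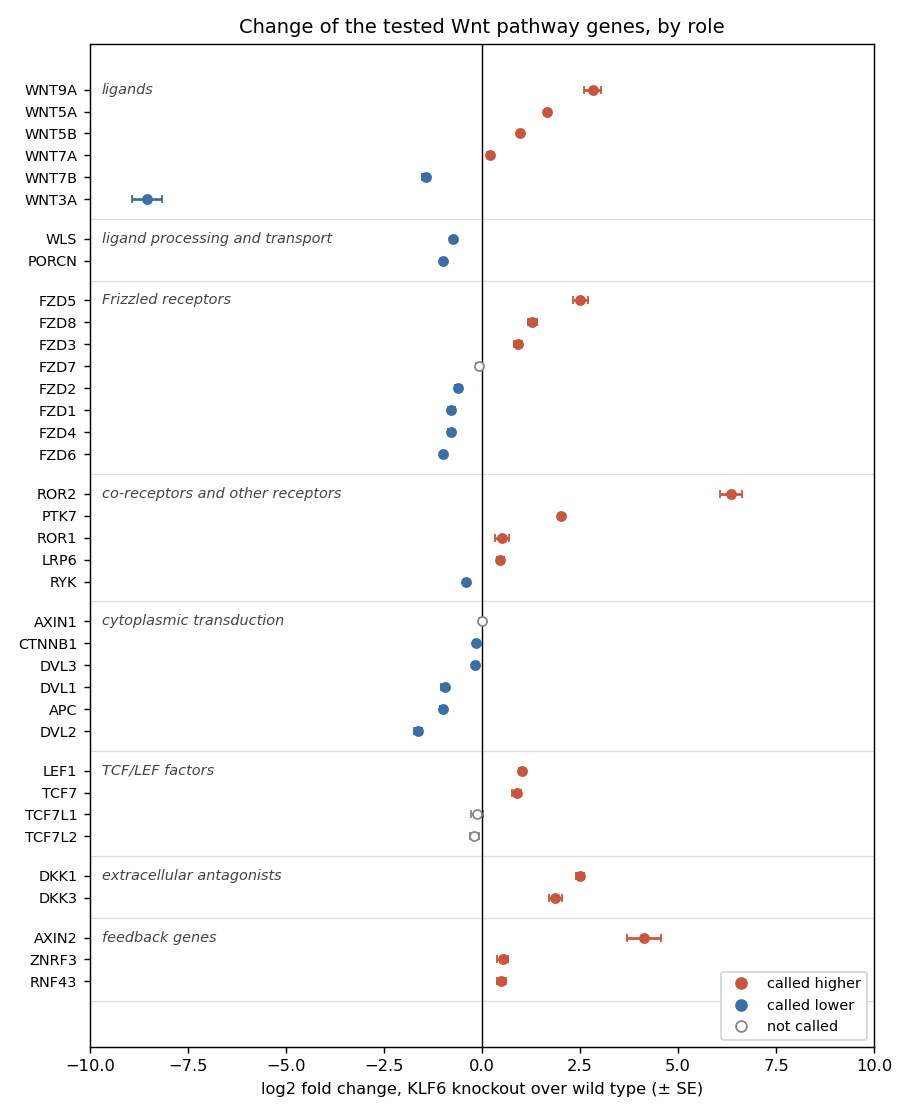
Change between knockout and wild type on the log2 scale, positive where knockout is higher (x axis), for the 36 tested members, grouped by role, with bars for the SE from 3 libraries per genotype and open points for genes not called. The 5 called cytoplasmic members lie below 0, both tested antagonists and all 3 feedback genes lie above 0, and the ligand and Frizzled groups spread to both sides. The point for WNT3A, which had 1 count in knockout libraries, depends on edgeR's prior count.

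Among the listed ligands, WNT5A, WNT5B, WNT7A and WNT9A rose in knockout libraries, while WNT3A and WNT7B fell. WNT5A (ENSBTAG00000020221, chromosome 22, 45541328 to 45558117, plus strand) is best known for signalling without beta-catenin. It stood at 219, 216 and 219.9 CPM in the knockout libraries, against 69.5, 68.8 and 69.9 CPM in wild type. Every knockout library lay above every wild-type library by a wide gap, and both groups were tight. The log2 fold change was 1.65 ± 0.05 (SE), with adjusted p = 7.65e-16. In RNA extracted from many cells, a change in how many cells express a gene and a change in its RNA per cell cannot be told apart. WNT5B, a close relative, stood at 97.3, 96.1 and 97.4 CPM in knockout libraries and 43.8, 51.2 and 53.6 CPM in wild type. Its log2 fold change was 0.97 ± 0.06, just short of 2-fold, and the groups did not overlap.

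WNT9A, a ligand known from joint formation in mice, was scarce in wild type. It had 89, 95 and 95 counts in knockout libraries and 12, 17 and 11 in wild type, or 5.11, 5.17 and 5.30 CPM in knockout libraries against 0.677, 0.911 and 0.601 CPM in wild type. The ratio of summed counts, scaled by library size as in all later count ratios, was 7.10, with a 95% counting interval of 5.08 to 10.2. WNT7A was at 28.0, 28.1 and 26.0 CPM in knockout libraries and 24.2, 24.0 and 23.3 CPM in wild type. That small difference (0.20 ± 0.07 on the log2 scale, adjusted p = 0.0231) was no longer called by DESeq2 (adjusted p = 0.0588), when libraries were scaled by total count alone (adjusted p = 0.0802) or with knockout replicate 1 (adjusted p = 0.0659) or 2 (adjusted p = 0.0737) left out.

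WNT7B, an epithelial ligand of ducts and branching organs in mice, moved the other way. Its levels were 20.6, 17.6 and 17.2 CPM in knockout libraries and 46.4, 48.6 and 54.6 CPM in wild type. The log2 fold change was -1.44 ± 0.08, with adjusted p = 3.55e-11 and no overlap between groups. WNT3A, the ligand most often used to switch on beta-catenin signalling in culture, had 1, 0 and 0 counts in knockout libraries and 152, 196 and 173 in wild type. It was almost unread after the edit, in all 3 libraries. The summed counts, scaled by library size, gave a ratio of 512 in favour of wild type (counting interval 91.5 to 20270). Without knockout replicate 1, which held the single count, WNT3A was at least 115-fold lower, taking 3 counts over the group as the floor.

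The remaining ligands of the list were close to unread in both genotypes. WNT4, the ligand that acts downstream of progesterone in the mouse mammary gland, had 11, 11 and 6 counts in knockout libraries and 1, 3 and 1 in wild type, too few to pass the filter. With no filter it was called higher, and the count ratio was 5.70 (counting interval 2.17 to 18.9). WNT10B had 7 counts over the knockout libraries and 8 over wild type, and WNT10A had 2 over the knockout libraries and 1 over wild type. No direction can be read from either of those genes at this depth.

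Levels of different genes were compared per kilobase of the gene length given in the count table. WNT5A led the ligands in both genotypes, at 107 ± 0.997 CPM per kilobase in knockout libraries and 33.9 ± 0.267 in wild type (SD, n = 3 each). It made up 69.1% ± 0.595 of the summed ligand level in knockout libraries and 42.8% ± 1.16 in wild type. WNT7B was the third ligand in wild type with 15.7% ± 0.981 of the sum, where its range over libraries overlapped that of WNT5B, and it ranked below WNT5A, WNT5B and WNT7A with 2.99% ± 0.276 in knockout libraries. The summed level of the 9 ligands was 156, 153.5 and 154 CPM per kilobase in knockout libraries and 77.0, 79.9 and 81.2 in wild type. The larger sum in knockout libraries was thus mostly WNT5A and WNT5B, since WNT7A differed little and WNT3A and WNT7B were lower.

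**Figure D2:**
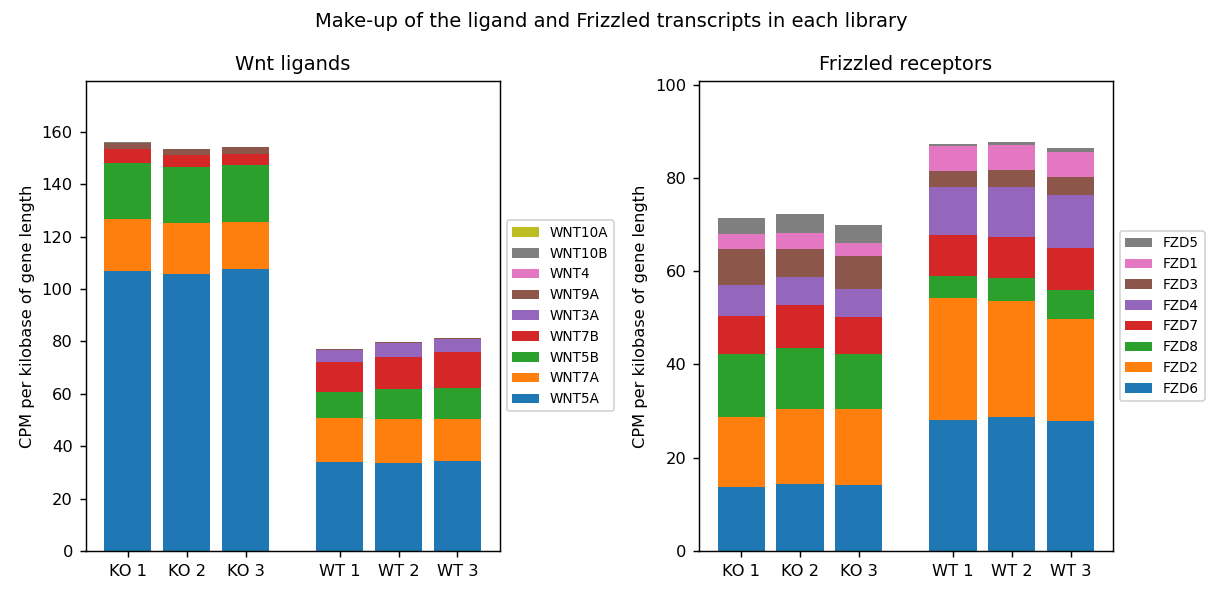
Stacked CPM per kilobase of gene length (y axis) of the 9 listed ligands and the 8 listed Frizzled receptors in each knockout (KO) and wild-type (WT) library. The ligand stack is taller in knockout libraries (153.5 to 156 in knockout, 77.0 to 81.2 in wild type) and is dominated by WNT5A, whereas the Frizzled stack is lower (69.9 to 72.2 in knockout, 86.4 to 87.6 in wild type), with more of FZD8 and FZD5 and less of FZD6.

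WNT3A and WNT9A are neighbours on chromosome 7 of the count table's annotation, and they moved in opposite directions. The genome build of these coordinates is not named in the labels or files. WNT3A (ENSBTAG00000039397) lies at 3035810 to 3087361 on the minus strand and WNT9A (ENSBTAG00000020267) at 3155441 to 3163239 on the plus strand, with 68079 bases between them. The only annotated row between these genes had 1 count in each genotype. On the far side of WNT3A, ARF1, a small GTPase of vesicle traffic, averaged 503 CPM in knockout libraries and 375 CPM in wild type (log2 fold change 0.42, adjusted p = 1.55e-07). The next genes with counts, C7H1orf35, MRPL55 and GUK1, had log2 fold changes of 0.20, 0.41 and 0.24, all called higher. MRPL55 overlaps both of the others, so reads may be shared among these 3 genes. The median over the 758 tested genes of chromosome 7 was 0.11. The near loss of WNT3A counts stood beside small rises of the nearest genes on one side and a 7.10-fold higher scaled count of WNT9A on the other.

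**Figure D3:**
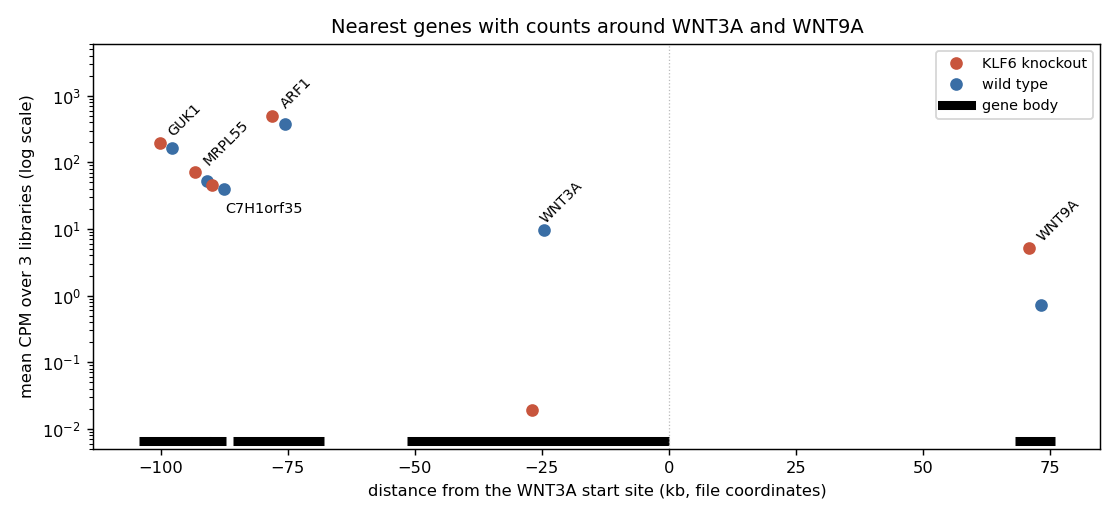
Mean CPM (y axis, log scale) of the nearest genes with at least 30 counts around WNT3A and WNT9A in knockout and wild-type libraries (n = 3 each), against the distance from the WNT3A start site in kilobases, with the points of a gene set slightly apart and gene bodies as black bars. ARF1, MRPL55, GUK1 and C7H1orf35 sit at nearly the same height in both genotypes, WNT3A is 9.51 CPM in wild type and 0.0191 CPM in knockout libraries, and WNT9A is higher in knockout libraries.

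Both genes that ligands need to leave the cell fell. PORCN, which attaches the lipid to Wnt proteins, stood at 34.0, 33.6 and 36.9 CPM in knockout libraries and 71.5, 69.8 and 67.4 CPM in wild type. Its log2 fold change was -1.00 ± 0.06 (adjusted p = 6.06e-11). WLS, the carrier that takes the lipid-modified ligand to the cell surface, stood at 231, 235 and 235.5 CPM in knockout libraries and 388, 383 and 401 CPM in wild type, a log2 fold change of -0.74 ± 0.04. With the median of its chromosome taken out, the change of WLS shrank to -0.35 ± 0.04, while that of PORCN stayed at -0.99 ± 0.06. For both genes all knockout libraries lay below all wild-type libraries, although the summed ligand level was higher in knockout libraries.

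The 8 listed Frizzled receptors span the membrane and bind the ligand. They divided into 3 that rose (FZD3, FZD5 and FZD8), 4 that fell (FZD1, FZD2, FZD4 and FZD6) and FZD7, which was not called. FZD5 had the largest change, with 5.97, 7.18 and 6.58 CPM in knockout libraries against 1.02, 1.07 and 1.37 CPM in wild type. The groups were far apart and the log2 fold change was 2.51 ± 0.19 (adjusted p = 1.60e-09). FZD8, the nearest relative of FZD5 within the family, stood at 28.2, 27.1 and 24.4 CPM in knockout libraries and 9.88, 9.86 and 13.0 CPM in wild type, a log2 fold change of 1.28 ± 0.11. FZD3, known from axon guidance and planar polarity in mice, was at 22.8, 17.8 and 20.7 CPM in knockout libraries and 9.88, 11.0 and 11.4 CPM in wild type (0.92 ± 0.11). So among the 8 listed Frizzled receptors, the 3 that rose were the lowest per kilobase in wild type. The range of FZD1 overlapped that of FZD8 there.

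FZD6, which led the family in wild type, fell. It stood at 59.5, 62.6 and 62.0 CPM in knockout libraries and 122.5, 125 and 121 CPM in wild type, with a log2 fold change of -1.00 ± 0.05 (adjusted p = 2.59e-12). The gene lies on chromosome 14, where the median over 301 tested genes was -0.82. Tested against that median, FZD6 was lower by a log2 of -0.18 ± 0.05, still called (adjusted p = 0.00301). FZD4, which also binds the non-Wnt ligand norrin, was at 17.6, 16.4 and 16.4 CPM in knockout libraries and 28.1, 28.6 and 30.8 CPM in wild type (-0.80 ± 0.08). FZD1 and FZD2 fell less than 2-fold, at -0.78 ± 0.09 and -0.62 ± 0.08, and their groups did not overlap. FZD7, a receptor linked to mammary stem cells in mice, averaged 18.5 ± 1.39 CPM in knockout libraries and 19.5 ± 0.262 CPM in wild type, and the groups overlapped (-0.08 ± 0.08, adjusted p = 0.413).

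Per kilobase, the order of the 8 listed Frizzled receptors changed. The order, sum and shares leave out FZD9 and FZD10, which are not on the list. FZD10 averaged 1.92 ± 0.203 CPM per kilobase in knockout libraries and 10.3 ± 0.239 in wild type. FZD9 averaged 1.40 ± 0.164 in knockout libraries and 0.604 ± 0.0455 in wild type. In knockout libraries FZD2 came first (15.8 ± 0.697 CPM per kilobase), then FZD6 (14.1 ± 0.385) and FZD8 (12.8 ± 0.949), with no overlap between neighbours in that order. FZD7, FZD3, FZD4, FZD5 and FZD1 followed, and among these FZD3 and FZD4 overlapped. In wild type FZD6 came first (28.3 ± 0.432), then FZD2 (24.3 ± 2.20) and FZD4 (10.9 ± 0.536), and FZD5 was last (0.655 ± 0.107). FZD3, FZD5, FZD7 and FZD8 held a larger share in knockout libraries, with no overlap between genotypes. FZD7 made up 11.7% ± 0.706 of the summed Frizzled level in knockout libraries and 10.1% ± 0.179 in wild type, while its own level was not called. FZD8 made up 18.0% ± 1.13 of the summed Frizzled level in knockout libraries and 6.05% ± 1.05 in wild type. The sum itself was 71.3, 72.2 and 69.9 CPM per kilobase in knockout libraries and 87.4, 87.6 and 86.4 in wild type.

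Of the co-receptors and other receptors, 4 rose and RYK fell, and ROR2 had the largest fitted rise of the tested members. ROR2 (ENSBTAG00000005092, chromosome 8, 85905346 to 86141520, plus strand), a receptor tyrosine kinase that binds WNT5A, had 183, 236 and 170 counts in knockout libraries and 1, 3 and 3 in wild type. These were 10.5, 12.8 and 9.48 CPM in knockout libraries against 0.0564, 0.161 and 0.164 CPM in wild type, where the gene was close to unread. The summed counts, scaled by library size, gave a ratio of 85.6 (counting interval 41.3 to 214). The fitted log2 fold change was 6.34 ± 0.29 (adjusted p = 7.67e-13). ROR1, its close relative, was at 3.33, 3.53 and 4.29 CPM in knockout libraries and 2.48, 2.73 and 2.62 CPM in wild type. That change (0.51 ± 0.19, adjusted p = 0.0205) was no longer called by DESeq2 (adjusted p = 0.0834), with knockout replicate 3 left out (adjusted p = 0.109) or wild-type replicate 1 left out (adjusted p = 0.0525).

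PTK7 (ENSBTAG00000012761, chromosome 23, 16703732 to 16767981, plus strand), a kinase-dead receptor of planar polarity, was the most abundant receptor of the set in knockout libraries. It stood at 581, 535 and 541 CPM there, against 129, 133 and 149 CPM in wild type, a log2 fold change of 2.01 ± 0.06 (adjusted p = 7.49e-16). Per kilobase it was at 131 ± 5.85 in knockout libraries, above RYK at 25.2 ± 0.805, whereas the ranges of PTK7 (32.6 ± 2.48) and RYK (33.2 ± 3.58) overlapped in wild type. RYK, another atypical Wnt receptor, was at 60.6, 58.7 and 62.5 CPM in knockout libraries and 85.3, 84.6 and 70.05 CPM in wild type (-0.40 ± 0.07, adjusted p = 4.92e-05). LRP6, the co-receptor of the beta-catenin branch, was at 31.3, 29.9 and 33.4 CPM in knockout libraries and 19.9, 21.8 and 26.8 CPM in wild type. LRP6 thus rose modestly, by 0.47 ± 0.10 (adjusted p = 2.98e-04), with no overlap between groups.

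**Figure D4:**
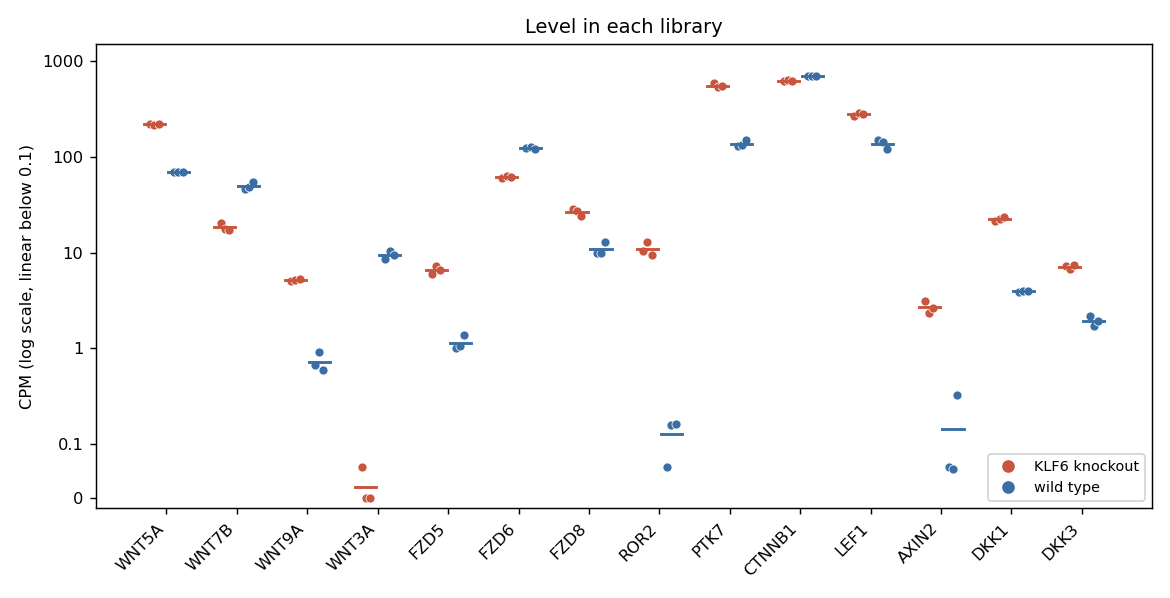
CPM in each library (points, y axis on a log scale that is linear below 0.1) and the mean of 3 libraries (lines) for 14 members, knockout libraries at the left of each pair. ROR2, AXIN2, WNT9A, FZD5, DKK1 and DKK3 lie far higher in knockout libraries, WNT3A is near 0 there, and CTNNB1 is nearly level.

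Inside the cell, all 5 called transduction genes fell and none of the 6 tested rose. DVL2, one of the Dishevelled scaffolds that relay the signal from Frizzled, stood at 9.18, 9.46 and 9.25 CPM in knockout libraries and 29.6, 24.4 and 32.7 CPM in wild type. Its log2 fold change was -1.64 ± 0.11 (adjusted p = 1.53e-10). DVL1 was at 34.3, 33.8 and 34.7 CPM in knockout libraries and 62.3, 60.3 and 77.0 CPM in wild type (-0.96 ± 0.08), with wild-type replicate 3 the highest for both scaffolds. DVL3, the scaffold with the highest level per kilobase in knockout libraries, was at 51.1, 57.6 and 54.6 CPM there and 62.8, 60.2 and 61.1 CPM in wild type. Its small fall (-0.17 ± 0.06, adjusted p = 0.0147) was no longer called by DESeq2 (adjusted p = 0.0596), with knockout replicate 1 left out (adjusted p = 0.0992) or wild-type replicate 1 left out (adjusted p = 0.0550).

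APC, the scaffold that holds beta-catenin in the destruction complex, stood at 36.8, 39.2 and 40.9 CPM in knockout libraries and 70.6, 82.6 and 80.5 CPM in wild type. The log2 fold change was -1.00 ± 0.07 (adjusted p = 2.43e-10), and the groups did not overlap. AXIN1, the other scaffold of that complex, averaged 51.5 ± 1.45 CPM in knockout libraries and 51.8 ± 6.72 CPM in wild type. Its groups overlapped, and the difference of -0.01 ± 0.08 on the log2 scale did not pass the test (adjusted p = 0.932). CTNNB1, which encodes beta-catenin itself, stood at 610, 627 and 619 CPM in knockout libraries and 701, 691 and 687 CPM in wild type. That was a small fall, of 1.12-fold (-0.16 ± 0.04, adjusted p = 0.00122), in the most abundant member of the cytoplasmic group per kilobase in both genotypes.

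Of the TCF/LEF factors, which bind DNA with beta-catenin, LEF1 and TCF7 rose and the others were not called. LEF1 stood at 263, 286.5 and 279 CPM in knockout libraries and 149, 142 and 119 CPM in wild type, a log2 fold change of 1.01 ± 0.07 (adjusted p = 5.04e-09). It dominated the family in both genotypes, with 92.7% ± 0.327 of the summed level per kilobase in knockout libraries and 88.7% ± 0.710 in wild type. TCF7 was at 16.0, 16.4 and 15.7 CPM in knockout libraries and 10.1, 8.79 and 7.32 CPM in wild type (0.88 ± 0.11, adjusted p = 1.48e-06). TCF7L1, mainly a repressor, averaged 4.11 ± 0.528 CPM in knockout libraries and 4.50 ± 0.179 CPM in wild type, a log2 difference of -0.13 ± 0.16 (adjusted p = 0.476). TCF7L2 averaged 9.12 ± 1.02 CPM in knockout libraries and 10.5 ± 0.636 CPM in wild type (-0.20 ± 0.12, adjusted p = 0.139), and the groups overlapped for both genes. TCF7L2 lies on chromosome 26, where the median change over 265 tested genes was 0.45, and against that median it was called lower (-0.65 ± 0.12, adjusted p = 8.28e-05).

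Both tested extracellular antagonists and all 3 feedback genes rose. DKK1, which blocks the LRP co-receptors, stood at 21.1, 22.5 and 23.3 CPM in knockout libraries and 3.84, 4.02 and 3.99 CPM in wild type. The log2 fold change was 2.50 ± 0.11 (adjusted p = 4.37e-13), and 2.05 ± 0.11 with the median of chromosome 26 taken out. DKK3, a divergent relative whose part in Wnt signalling is less clear, was at 7.17, 6.74 and 7.41 CPM in knockout libraries and 2.20, 1.72 and 1.91 CPM in wild type (1.87 ± 0.17). SFRP1, a secreted decoy for Wnt ligands, had 2 counts over the knockout libraries and 0 over wild type. Both lie at or under the floor of 3 counts, so SFRP1 gave no comparison.

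AXIN2 (ENSBTAG00000030162, chromosome 19, 62212833 to 62240091, minus strand), the feedback scaffold widely used as a readout of beta-catenin signalling, was almost unread in wild type. It had 54, 43 and 47 counts in knockout libraries and 1, 1 and 6 in wild type, or 3.10, 2.34 and 2.62 CPM in knockout libraries against 0.0564, 0.0536 and 0.328 CPM in wild type. The ratio of summed counts, scaled by library size, was 18.3 (counting interval 9.05 to 43.2). The log2 fold change was 4.13 ± 0.43 (adjusted p = 8.99e-08). Without wild-type replicate 3, which held 6 of the 8 wild-type counts of AXIN2, the change was 5.44. RNF43 and ZNRF3 are membrane ubiquitin ligases that remove Frizzled from the cell surface. RNF43 was at 16.0, 14.3 and 12.8 CPM in knockout libraries and 9.20, 9.54 and 11.9 CPM in wild type (0.49 ± 0.12, adjusted p = 0.00124). ZNRF3 was at 6.14, 5.71 and 5.74 CPM in knockout libraries and 4.57, 3.64 and 4.04 CPM in wild type (0.52 ± 0.15, adjusted p = 0.00441). For all 3 feedback genes every knockout library lay above every wild-type library, and AXIN2 remained the least abundant of them per kilobase, at 0.689 ± 0.0988 in knockout libraries and 0.0375 ± 0.0404 in wild type.

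Whole chromosomes differed between the genotypes in their median change, which ran from -0.82 on chromosome 14 to 0.48 on chromosome 20. Each member was therefore also tested against the median of its own chromosome. The counts were then 17 higher and 14 lower. WNT7A and DVL3 were no longer called (adjusted p = 0.121 and 0.350), TCF7L2 was called lower, and the falls of FZD6 and WLS shrank as given above. The other members stayed on the same side of the threshold with the same sign. The size of their change could shrink, as for FZD2 (-0.36 ± 0.08), or grow, as for ROR1 (0.90 ± 0.19).

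**Figure D5:**
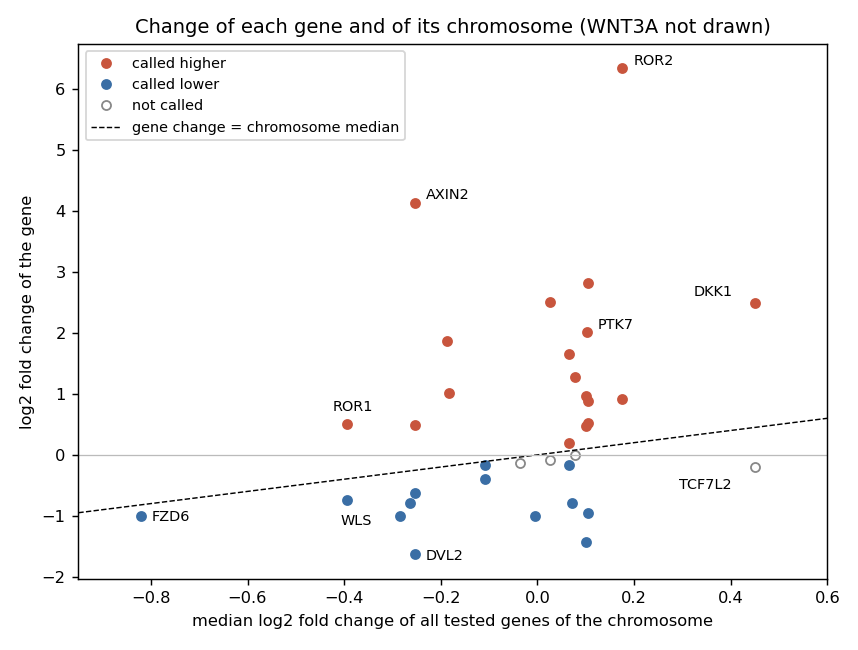
Log2 fold change of each tested member except WNT3A (y axis) against the median log2 fold change of all tested genes on its chromosome (x axis), with the dashed line where both are equal. FZD6 lies close to the line at -1.00 against -0.82, whereas ROR2, AXIN2, DKK1 and PTK7 lie far above it.

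A second set of 125 other Wnt pathway genes gave the wider setting. Of these, 123 had a row, 83 were tested, 24 rose and 40 fell, which is 77.1% against 74.6% of all tested genes. Their median size of change was 0.50, the same to 2 decimals as that of all tested genes. The lists below are given by counts and medians, and no list was tested as a set. Over all tested genes 37.1% were called higher and 37.6% lower, and the median log2 fold change was -0.01.

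Among the 14 other ligands and R-spondins, only WNT6 and WNT11 were tested, and 1 rose. WNT6, with 165 counts over the knockout libraries and 13 over wild type, had a log2 fold change of 3.65 ± 0.38 and a count ratio of 12.9 (counting interval 7.34 to 24.8), and WNT11 was not called (0.55 ± 0.27, adjusted p = 0.0744). Of 6 tested other receptors and co-receptors, 3 rose and 3 fell. FZD10 averaged 3.76 ± 0.397 CPM in knockout libraries and 20.1 ± 0.469 CPM in wild type (-2.42 ± 0.11), which makes it the Frizzled gene with the largest fall, while FZD9 rose (1.21 ± 0.26). RECK, a membrane protein that takes part in WNT7-type signalling in endothelium, rose by 2.58 ± 0.27 and ATP6AP2, an adaptor at the LRP6 receptor complex, by 0.64 ± 0.04. LGR4, a receptor for R-spondins, was slightly lower (-0.16 ± 0.05, adjusted p = 0.00946), as was TMEM67 (-0.29 ± 0.12, adjusted p = 0.0408). LGR4 was no longer called without knockout replicate 1 (adjusted p = 0.0569), nor TMEM67 by DESeq2 (adjusted p = 0.135) or without knockout replicate 1, knockout replicate 2 or wild-type replicate 2 (adjusted p = 0.0799 to 0.1998). Against the medians of their chromosomes LGR4 was at 0.03 (adjusted p = 0.621) and TMEM67 was called higher, at 0.53.

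Other secreted modulators were mostly unread, and of 4 tested 2 rose and 1 fell. APCDD1, a membrane inhibitor of Wnt signalling, averaged 2.82 ± 0.616 CPM in knockout libraries and 0.276 ± 0.103 CPM in wild type (3.33 ± 0.35), and DKK2 rose by 1.81 ± 0.44 (2.40 without wild-type replicate 3). DRAXIN, a secreted guidance protein that can antagonise Wnt signals, had no count in any knockout library and 350 over the wild-type libraries. Against a floor of 3 counts over the group, DRAXIN was at least 115-fold lower.

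Of 19 tested other cytoplasmic genes, 5 rose and 8 fell, with a median of -0.09. GSK3A, the relative of GSK3B, averaged 124 ± 3.41 CPM in knockout libraries and 83.5 ± 4.44 CPM in wild type (0.57 ± 0.05), and PPP2CA, a catalytic subunit of protein phosphatase 2A, rose by 0.41 ± 0.04. JUP, or plakoglobin, a junction protein related to beta-catenin, averaged 405 ± 5.51 CPM in knockout libraries and 914 ± 39.9 CPM in wild type (-1.17 ± 0.04). PPP2R5E and AMER1 fell (-0.62 ± 0.07 and -0.44 ± 0.15). AMER1 was no longer called with knockout replicate 2 or 3 or wild-type replicate 3 left out (adjusted p = 0.0541 to 0.117). DACT3 had 41 counts over the knockout libraries and 2 over wild type (ratio 20.9, counting interval 5.42 to 178). Both wild-type counts of DACT3 came from replicate 1, and its fitted log2 fold change was 4.15 ± 0.72 with that library and 6.81 without it.

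Of 16 tested nuclear cofactors and corepressors, 10 fell and 2 rose, with a median log2 fold change of -0.43. The Groucho-type corepressors TLE2 and TLE1 had the largest falls, with TLE2 at 2.33 ± 0.799 CPM in knockout libraries and 14.0 ± 0.818 CPM in wild type (-2.59 ± 0.17) and TLE1 at 5.18 ± 0.836 CPM in knockout libraries and 21.2 ± 0.825 CPM in wild type (-2.03 ± 0.12). BCL9L, a coactivator that binds beta-catenin, averaged 23.7 ± 0.961 CPM in knockout libraries and 75.7 ± 8.33 CPM in wild type (-1.68 ± 0.08). The corepressor CTBP2 and the beta-catenin inhibitor CTNNBIP1 rose (0.53 ± 0.05 and 0.20 ± 0.07), and neither was called against the median of its chromosome (adjusted p = 0.138 and 0.252). CTNNBIP1 also lost its call when knockout replicate 1 or wild-type replicate 1 was left out (adjusted p = 0.149 and 0.0974), or when libraries were scaled by total count alone (adjusted p = 0.0757).

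Among 14 tested genes widely used as beta-catenin targets, 6 rose and 6 fell, and the median was 0.00. SOX9, a transcription factor of progenitor cells, averaged 2.10 ± 0.0842 CPM in knockout libraries and 0.440 ± 0.192 CPM in wild type (2.24 ± 0.33). The mitotic gene BIRC5 and the Notch ligand gene JAG1 rose as well (1.36 ± 0.05 and 1.31 ± 0.05). MMP7, TBX3 and FST fell (-1.65 ± 0.11, -0.82 ± 0.14 and -0.71 ± 0.04). MYC and CCND1 were called slightly lower, and their groups overlapped (-0.15 ± 0.06, adjusted p = 0.0268, and -0.14 ± 0.05, adjusted p = 0.0250). AXIN2, LEF1 and TCF7, which are described above and are not in this list, rose.

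Of 22 tested genes of planar polarity and other beta-catenin-independent branches, 5 rose and 12 fell, with a median of -0.20. DAAM2, a formin that links Dishevelled to actin, had 332 counts over the knockout libraries and 6 over wild type, a log2 fold change of 5.73 ± 0.37, or 7.49 without wild-type replicate 3. PRICKLE2, with 130 counts over the knockout libraries and 11 over wild type, rose by 3.55 ± 0.38 (count ratio 12.0, counting interval 6.50 to 24.7). VANGL2 averaged 1.19 ± 0.167 CPM in knockout libraries and 0.635 ± 0.287 CPM in wild type (0.89 ± 0.36, adjusted p = 0.0321), and it was no longer called by DESeq2 (adjusted p = 0.119) or with knockout replicate 1 (adjusted p = 0.0956), knockout replicate 2 (adjusted p = 0.0799) or wild-type replicate 1 (adjusted p = 0.146) left out. CELSR2, an atypical cadherin of planar polarity, averaged 2.49 ± 0.668 CPM in knockout libraries and 13.9 ± 2.00 CPM in wild type (-2.49 ± 0.17), and the polarity scaffold gene SCRIB fell by 1.31 ± 0.06 on the log2 scale, or by 0.49 with the median of chromosome 14 taken out. ANKRD6, the vertebrate relative of the fly polarity gene diego, fell too (-1.91 ± 0.17).

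The authors' deposited table, which lists only genes past their threshold, held 30 of the members. For the 29 of these that were tested here, the sign was the same in the authors' deposited table, with a largest difference in log2 fold change of 0.34. WNT4 is listed there at 2.53 but did not pass the filter used here. The 3 members called here and not listed in the authors' deposited table were WNT7A, ROR1 and DVL3.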

How the data were processed

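Total RNA of KLF6 knockout and wild-type cells was sequenced in 3 libraries per genotype, prepared using Ion Total RNA-Seq Kit v2, per the labels' protocols. The authors deposited raw counts per gene, and the submitters' processing notes name HISAT2 2.0.5 and featureCounts 1.5.0-p3 without roles or settings. No source used here names the genome build, annotation version or strand setting, and no member overlaps another gene with at least 30 counts in the file's coordinates. The authors' deposited table gives log2 fold changes, p-values and adjusted p-values, and its sample columns hold a normalized signal (counts divided by a factor per library), per the file headers and values. All columns of per-sample values were used or matched to a sample.

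Genotypes were compared on the deposited counts with edgeR 4.0.16 (R 4.3.3, limma 3.58.1, DESeq2 1.42.0 for an alternative), using TMM scaling, filterByExpr (minimum count 10, minimum total 15), robust quasi-likelihood fits and Benjamini-Hochberg adjustment at 0.05 over 13390 genes. The procedure was also run on simulated counts in which few genes changed, as many up as down, and no chromosome shifted. These data differ in that respect, so that run does not bear on scaling here. Rows without an Ensembl identifier held 0.807% to 0.884% of a library's counts and were kept. CPM uses the TMM-scaled library size, errors of levels are SD over 3 libraries, and the SE of a log2 fold change is its size over the square root of the test's F, so it adds nothing to the p. Count ratios divide the summed counts of each genotype by its summed TMM-scaled library sizes. Counting intervals are exact 95% intervals for such a ratio. They cover no more than counting error, as no molecular identifiers are mentioned.

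Members, their roles and the lists of other pathway genes and markers were chosen with earlier results of these data known. Values per library are given for members called with at least a 2-fold change and for up to 2 more per role, and for each other list up to 3 called genes per direction with at least 30 counts over the 6 libraries. CTNNB1, RYK, MYC and CCND1 were added for their roles after their values were seen. Replicate numbers were not used to pair the libraries in the main test. Alternatives covered scaling, test, filter, block, chromosome medians, symbols on several rows, and leaving out each library. Paralogs such as WNT5A and WNT5B may share reads where their sequences are alike.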

Additional observations from a re-analysis of the deposited data

How the results depend on the processing

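Across 15 alternatives, 6 of which left out 1 library, the members called higher ranged from 17 to 19 and those called lower from 13 to 14, and the ranges with a library left out were the same. Over all genes the counts ranged from 4622 to 5425 higher and 4599 to 5354 lower, and over the other pathway genes from 21 to 29 and 33 to 43. Of the 36 tested members, 31 kept direction and side of the threshold in each alternative. The exceptions were WNT7A, ROR1, DVL3 and TCF7L2, with values in the report, and AXIN1, which was not called in any and changed sign with DESeq2 size factors in edgeR (0.0062), by DESeq2 (0.0064) and without knockout replicate 2 or wild-type replicate 3, and which ranged between -0.068 and 0.11 with a library left out. The cause was not tested. Among the other pathway genes that were named, TMEM67 (0.53) and LGR4 (0.029) changed sign with the chromosome median taken out, by that alternative's construction. Libraries of equal number showed no shared deviation between genotypes (correlations of -0.06 to 0.10, against -0.13 to 0.16 for unequal numbers). With 3 libraries per genotype this check cannot exclude pairing. Library numbers were therefore used in the main test to name libraries only. With the replicate number as a block, 18 members were higher and 14 lower, 4938 and 4956 of all genes, and 24 and 37 of the other pathway genes, and no member changed its call. Genes with few counts in a genotype have imprecise fold changes. Among them are WNT3A, AXIN2, ROR2, DACT3, DAAM2, DRAXIN, PRICKLE2, WNT6, APCDD1 and DKK2. WNT10A, WNT10B and SFRP1 could not be compared at this depth.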
